A study of Mus musculus with 12 samples.

Results

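The cyclin-dependent kinase (CDK) inhibitor genes are the 7 genes of the INK4 and CIP/KIP families, and all 7 were found among the 54839 features of the deposited count table by their gene symbols. The INK4 family has 4 members, Cdkn2a, Cdkn2b, Cdkn2c and Cdkn2d, and the CIP/KIP family has 3, Cdkn1a, Cdkn1b and Cdkn1c. INK4 proteins bind CDK4 and CDK6 and keep them from pairing with D-type cyclins, so that the retinoblastoma protein stays unphosphorylated and holds E2F factors in check. CIP/KIP proteins bind a broader range of cyclin-CDK complexes, chiefly those of CDK2. In liver the inhibitors are known for holding hepatocytes out of the cell cycle, and p16Ink4a, a product of Cdkn2a, and p21, the product of Cdkn1a, are widely used as marks of cellular senescence.

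The RNA-seq covered Tom+ and Tom- hepatocytes sorted as live cells from the livers of male, heterozygous p16-Tom mice on a C57BL/6 background. There were 3 libraries in each of 4 groups, named Tom- oil, Tom+ oil, Tom- CCl4 and Tom+ CCl4 after the sorted fraction and the injected agent. All mice carried a CreERT2 recombinase inserted at the p16Ink4a start of Cdkn2a and a tdTomato cassette that Cre switches on for good, so that 1 of the alleles of Cdkn2a was altered in every group, controls included. Mice received tamoxifen (80 mg/kg), which activates the recombinase, and the treated groups received CCl4, a hepatotoxin, at 1 mL/kg every 3 days as a 20% solution in corn oil, the vehicle of the oil groups. A Tom+ cell had p16Ink4a promoter activity when tamoxifen was given, which need not hold at the time of sorting. CCl4 or oil was given for 4 weeks as read from the study's figure legends, since its methods state no length for these libraries. The age of the mice is not given in the sources used here.

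Total counts ranged from 37568669 to 75331523 per library, and 3 counts, the smallest level taken as detectable, corresponded to between 0.0369 and 0.0829 CPM, that is counts scaled to library size by the TMM method, a limit that covers counting error only. The level of the reporter went against the labels of 2 oil libraries. Tom- oil replicate 1 held 1794 CPM of it and Tom+ oil replicate 2 held 135 CPM, whereas the other Tom- libraries held between 120 and 263 CPM and the other Tom+ libraries between 1225 and 1546 CPM. The labels were kept, the called differences of the 7 genes that rest on oil are also given without these 2 libraries, and named calls of other genes that were lost without them are pointed out. The 7 hepatocyte markers summed to between 90800 and 135300 CPM. Markers of other liver cells were present at far lower levels, and because these are bulk samples, fewer cells of a type and less RNA per cell cannot be told apart.

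Cdkn2a lies on the minus strand of chromosome 4 (mm10, 89274471 to 89294653) and holds 2 genes in 1. The p16Ink4a transcript starts in exon 1-alpha (89281986 to 89282192), the p19Arf transcript starts upstream in exon 1-beta (89294334 to 89294653), and both continue in a shared second exon of 341 bases (89276645 to 89276985). The deposited feature sums all these exons, 1172 bases in total, so that its counts do not tell p16Ink4a from p19Arf. The stretch before each start is printed because the sort relied on the first of these promoters while the counts merge both. They are read from RefSeq promoter windows (GRCm38.p6, the assembly of mm10), 5′ to 3′ on the minus strand, and capitals mark matches to TTTNNCGC, an E2F-like core, and to GGGCGG, a GC box, on either strand.
p16Ink4a start, chr4:89282193-89282442: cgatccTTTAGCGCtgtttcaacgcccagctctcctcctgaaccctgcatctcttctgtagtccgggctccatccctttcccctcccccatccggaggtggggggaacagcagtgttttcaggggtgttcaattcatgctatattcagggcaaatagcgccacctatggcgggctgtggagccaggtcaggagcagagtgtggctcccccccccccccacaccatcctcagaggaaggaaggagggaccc
p19Arf start, chr4:89294654-89294869: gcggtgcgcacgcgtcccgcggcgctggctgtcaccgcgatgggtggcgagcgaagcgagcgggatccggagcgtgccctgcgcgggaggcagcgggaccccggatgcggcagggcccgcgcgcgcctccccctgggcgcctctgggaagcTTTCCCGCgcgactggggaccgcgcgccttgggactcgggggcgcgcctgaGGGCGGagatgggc
The 250 bases before the p16Ink4a start held 1 E2F-like core and 0 GC boxes. The 216 bases printed for p19Arf held 1 of each, with 34 bases of the RefSeq window left out because the annotation places them inside exon 1-beta. RefSeq windows were found for 6 of the 7 genes, 9 windows in all. The E2F-like core was in 2 of these 9 windows, those of Cdkn2a, and in 4.28% of all 32851 windows of 250 bases, and the GC box was in 5 of the 9 and in 32.7% of all. Neither TATAAA nor CACGTG was in any of the 9, against 12.4% and 6.02% of all windows. Cdkn1c is named only.

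Cdkn2b, which codes for p15Ink4b, lies 11646 bases from Cdkn2a, edge to edge, on the same strand and is its paralog. The longest run shared by transcripts of the 2 genes is printed because it shows how short their identical stretches are, and it lies in the coding sequence of both.
Cdkn2a and Cdkn2b shared run: cgggaaggcttcctggacacgct
This run of 23 bases was also the longest shared by any pair of the 7 genes, equalled only by a run between Cdkn1a and Cdkn1b. A read longer than the run reaches bases that differ between Cdkn2a and Cdkn2b. Deposited counts of Cdkn2a and Cdkn2b were whole numbers in all 12 libraries.

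Per transcript length, Cdkn1a was the most abundant of the 7 in every group and Cdkn2a and Cdkn2b the least. On the TPM scale, in which counts are divided by exon length and then scaled to a fixed sum, Cdkn1a had a mean level of 49.2 ± 24.9 (SD, n = 3) in Tom- oil, 48.3 ± 28.6 in Tom+ oil, 35.2 ± 6.29 in Tom- CCl4 and 40.2 ± 5.73 in Tom+ CCl4. In both oil groups the order of mean levels was Cdkn1a, Cdkn1b, Cdkn2c, Cdkn2d, Cdkn1c, Cdkn2b and Cdkn2a. The libraries of Cdkn2d and Cdkn1c overlapped in both of these groups, and those of Cdkn2b and Cdkn2a overlapped in Tom+ oil. Cdkn1c moved up this order with CCl4. Its mean of 10.2 ± 0.756 TPM in Tom- CCl4 overlapped with those of Cdkn1b (10.8 ± 0.58) and Cdkn2c (10.03 ± 0.85), and in Tom+ CCl4 it was second with 22.8 ± 2.64 TPM, above Cdkn2c (14.8 ± 2.14) without overlap. Tom- CCl4 was the group in which Cdkn2a (0.697 ± 0.242 TPM) stood above Cdkn2b (0.268 ± 0.14 TPM), without overlap. The share of Cdkn1c in the summed TPM of the 7 genes ranged from 1.38% to 25.9% over the 12 libraries, that of Cdkn1a from 39.9% to 79.3% and that of Cdkn2a from 0 to 1.24%.

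**Figure D1:**
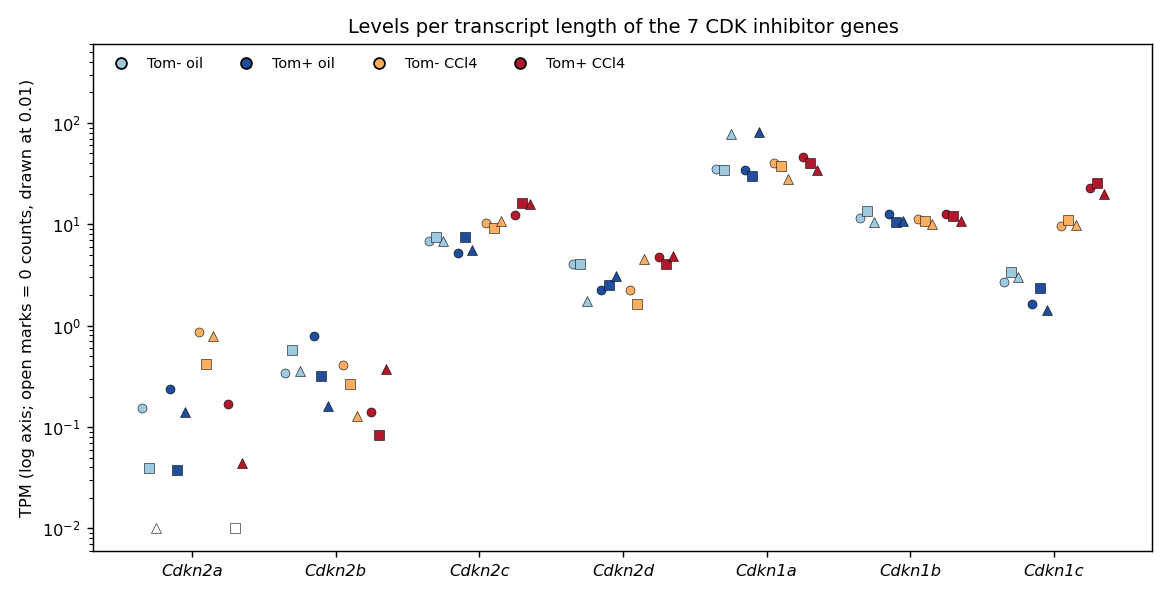
Levels of the 7 CDK inhibitor genes per transcript length, in TPM on a log axis, in each of the 12 libraries (circles, squares and triangles are replicates 1, 2 and 3; open marks are libraries with 0 counts, drawn at 0.01). Cdkn1a lies highest in every group, Cdkn2a and Cdkn2b lie below 1 TPM throughout, and Cdkn1c climbs from between 1.42 and 3.36 TPM in oil to between 20.02 and 25.3 TPM in Tom+ CCl4.

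Cdkn2a, the gene whose p16Ink4a promoter drives the recombinase that switches on the reporter, had few reads everywhere and the most in Tom- CCl4. Its raw counts were 3, 1 and 0 in Tom- oil, 8, 1 and 3 in Tom+ oil, 18, 8 and 21 in Tom- CCl4, and 6, 0 and 1 in Tom+ CCl4 (replicates 1, 2 and 3). The 3 Tom- CCl4 libraries did not overlap with any other group (the count of 8 in Tom+ oil came from a deeper library, 0.116 CPM against 0.221 CPM), and the other 3 groups overlapped. The gene passed the filter on low counts only through Tom- CCl4, so that it had to differ to be tested, and its fitted values under that filter are given as a description and support nothing. Between Tom- CCl4 and Tom- oil, 47 reads stood against 4, a ratio of 13.2 after scaling to library size with an exact 95% counting interval of 4.83 to 50.5. That interval does not cover the spread between libraries. With no filter on low counts the log2 difference was 3.51 and did not pass (edgeR adjusted p = 0.0642). Under the filter it was 3.54 ± 1.04 (SE, edgeR adjusted p = 0.0342). That adjusted p rose above the threshold without Tom- oil replicate 2 (0.119) or 3 (0.0999) and without Tom- CCl4 replicate 1 (0.0888) or 2 (0.0638), and without Tom- CCl4 replicate 3 the gene was not tested. Without the 2 oil libraries whose reporter went against their labels the difference was 4.94 (adjusted p = 0.0415), under the same filter.

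Between the fractions in CCl4 the direction of Cdkn2a was opposite to that of the reporter. Tom+ CCl4 held 7 reads and Tom- CCl4 held 47, 9.55-fold fewer after scaling (exact 95% counting interval 4.29 to 25.0), while the reporter stood between 1316 and 1369 CPM in Tom+ CCl4 and between 120 and 263 CPM in Tom- CCl4. The counting intervals given here do not cover the spread between libraries. The fitted log2 difference of Cdkn2a was -3.27 ± 0.97 (SE) and did not pass the test (edgeR adjusted p = 0.0624), nor did it with no filter on low counts (-3.32, adjusted p = 0.114). With the replicate number as a block, that is with same-numbered Tom+ and Tom- libraries treated as pairs, it was -3.50 (adjusted p = 0.0246), and in limma-voom -3.48 (adjusted p = 0.0461), both on genes that had passed the filter and so no support either. In oil the fractions were not told apart at this depth, with 12 reads in Tom+ against 4 in Tom- (ratio 2.56, interval 0.775 to 10.9). Of these 4 reads, 3 came from Tom- oil replicate 1, whose reporter went against its label. Without the 2 oil libraries of that kind the fitted log2 difference was 2.99 (edgeR adjusted p = 0.813), against 1.19 with all libraries, both under the filter on low counts. Within Tom+, 7 reads in CCl4 against 12 in oil gave a ratio of 0.542 (interval 0.181 to 1.49). The interaction, the difference between the fraction effects in CCl4 and in oil, was -4.46 ± 1.499 (edgeR adjusted p = 0.136).

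Endothelial markers moved with Cdkn2a. The 8 markers, among them Pecam1, Kdr and Cdh5, summed to between 249 and 269 CPM in Tom- CCl4, and to between 96.2 and 147 in Tom- oil, between 107 and 179 in Tom+ oil and between 130 and 176 in Tom+ CCl4. In Tom- cells 8 of 8 were higher in CCl4 than in oil (6.33% of all genes), and in CCl4 4 of 8 were lower in Tom+ than in Tom- (1.74% of all genes) while all 8 were lower in 3 of 3 same-numbered pairs. None of these 4 calls was made without Tom- CCl4 replicate 1 or 2 or without Tom+ CCl4 replicate 1 or 2. None of the 8 was at 0 in every library of a group. The 8 stellate cell markers summed to between 69.5 and 92.8 CPM in Tom- CCl4 and between 50.4 and 103 in Tom+ CCl4, against between 8.84 and 24.4 in oil. The 8 macrophage markers summed to between 75.6 and 98.5 CPM in Tom- CCl4, between 48.0 and 146 in Tom+ CCl4 and between 12.4 and 91.5 in oil. Their part in the Cdkn2a counts was not tested.

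**Figure D2:**
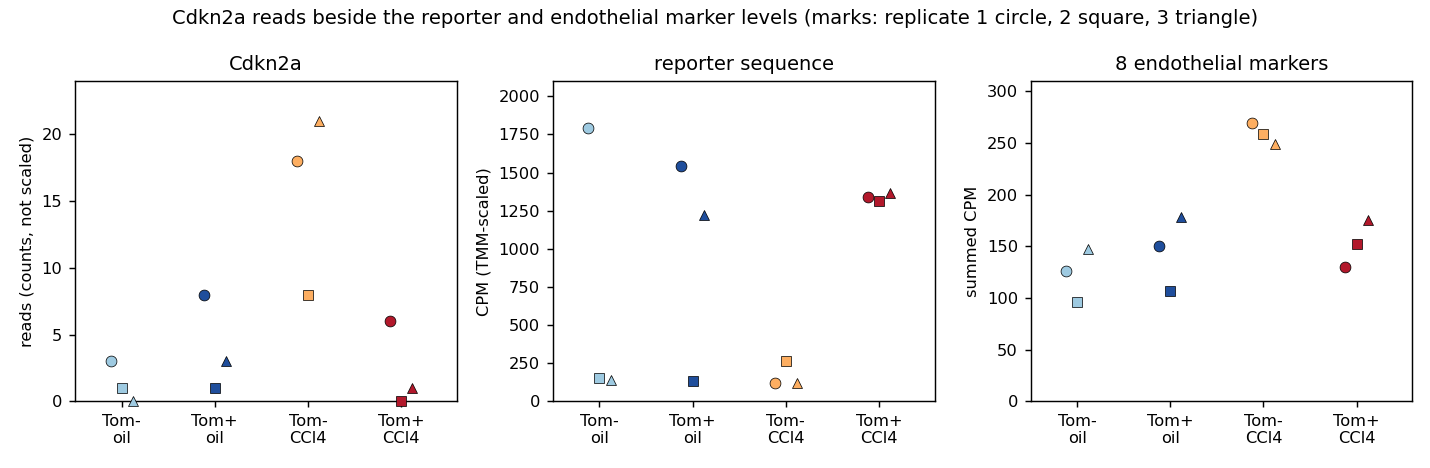
Cdkn2a read counts (left, not scaled), the reporter sequence in CPM (middle) and the summed CPM of 8 endothelial markers (right) in each library of the 4 groups (circle, square and triangle are replicates 1, 2 and 3). Cdkn2a counts are 18, 8 and 21 in Tom- CCl4 and at most 8 elsewhere, a count that Tom+ oil replicate 1 also reaches, and endothelial marker sums are highest in Tom- CCl4, where the reporter lies at or below 263 CPM.

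Cdkn2b, coding for the INK4 inhibitor that TGF-beta signalling is known to induce, was scarce too and did not pass the test in any comparison. Per transcript length it stood above Cdkn2a in Tom- oil (0.42 against 0.064 TPM) and below it in Tom- CCl4, both without overlap. Its raw counts were 8, 17 and 10 in Tom- oil, 31, 10 and 4 in Tom+ oil, 10, 6 and 4 in Tom- CCl4, and 6, 2 and 10 in Tom+ CCl4. All 4 groups overlapped. The largest difference was within Tom+, with 18 reads in CCl4 against 45 in oil, of which Tom+ oil replicate 1 gave 31. The fitted log2 difference was -1.22 ± 0.74 (SE, edgeR adjusted p = 0.34), and the ratio of the summed reads was 0.371 with an exact 95% counting interval of 0.202 to 0.655, which does not cover the spread between libraries.

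Cdkn2c, which codes for p18Ink4c, was the INK4 gene with the highest level and rose with CCl4 in Tom+ cells. It measured 8.10, 8.45 and 7.58 CPM in Tom- oil, 5.82, 8.74 and 6.61 in Tom+ oil, 12.2, 10.98 and 13.7 in Tom- CCl4, and 12.5, 16.7 and 17.2 in Tom+ CCl4. Every CCl4 library was above every oil library. Within Tom+ the log2 difference between CCl4 and oil was 1.13 ± 0.16 (SE, 95% interval 0.78 to 1.48, edgeR adjusted p = 9.9e-04), 2.19-fold. Within Tom- it was 0.61 ± 0.16 (edgeR adjusted p = 0.0225), below the log2 threshold of 0.75 required of a call. With same-numbered Tom+ and Tom- libraries summed, which pools the fractions, the difference between CCl4 and oil was 0.90 (edgeR adjusted p = 0.00701). Between the fractions, Cdkn2c was higher in Tom+ in 3 of 3 same-numbered CCl4 pairs, by 0.33 ± 0.16 on the log2 scale, which did not pass (adjusted p = 0.246), and its interaction of 0.52 ± 0.23 did not pass either (adjusted p = 0.252). Without the 2 oil libraries whose reporter went against their labels, the difference within Tom+ was 1.32 (adjusted p = 0.00153).

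Cdkn2d, coding for p19Ink4d, passed the test in no comparison. It measured 2.79, 2.65 and 1.14 CPM in Tom- oil, 1.45, 1.72 and 2.15 in Tom+ oil, 1.57, 1.16 and 3.36 in Tom- CCl4, and 2.79, 2.40 and 3.13 in Tom+ CCl4. The Tom+ CCl4 libraries lay above the Tom+ oil libraries without overlap, with a log2 difference of 0.65 ± 0.38 (SE, edgeR adjusted p = 0.322), and the other groups overlapped.

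Cdkn1a, coding for p21, a target of p53 and the most abundant of the 7, did not pass the test in any comparison. It measured 55.3, 50.9 and 114 CPM in Tom- oil, 50.0, 45.3 and 127 in Tom+ oil, 63.0, 60.2 and 47.3 in Tom- CCl4, and 61.5, 54.3 and 49.6 in Tom+ CCl4. In oil, replicate 3 was well above replicates 1 and 2 in both fractions, and all groups overlapped. In CCl4 the fractions differed by -0.04 ± 0.43 (log2, SE, 95% interval -1.01 to 0.93). With same-numbered libraries paired this was -0.04 ± 0.08 (edgeR adjusted p = 0.783), and in oil it was -0.05 ± 0.08 (adjusted p = 0.812). CCl4 against oil was -0.37 ± 0.43 within Tom- and -0.42 ± 0.43 within Tom+ (edgeR adjusted p = 0.593 and 0.608). The antisense feature AC167363.2 overlaps 273 of its 3553 exon bases and held between 3.37% and 5.23% of the summed counts of both.

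Cdkn1b, which codes for p27, was nearly flat. Its level lay between 19.8 and 25.5 CPM in all 12 libraries, with group means of 22.9 ± 2.89 (SD, n = 3) in Tom- oil, 22.1 ± 1.54 in Tom+ oil, 22.3 ± 0.482 in Tom- CCl4 and 20.7 ± 0.938 in Tom+ CCl4. In CCl4 the 3 Tom+ libraries (21.7, 20.7 and 19.8 CPM) lay just below the 3 Tom- libraries (22.9, 22.2 and 21.9 CPM), while the other neighbouring groups overlapped. The log2 difference there was -0.11 ± 0.10 (SE, 95% interval -0.32 to 0.11, edgeR adjusted p = 0.57). Over the 4 comparisons between groups its intervals reached no further than -0.32 and 0.18.

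**Figure D3:**
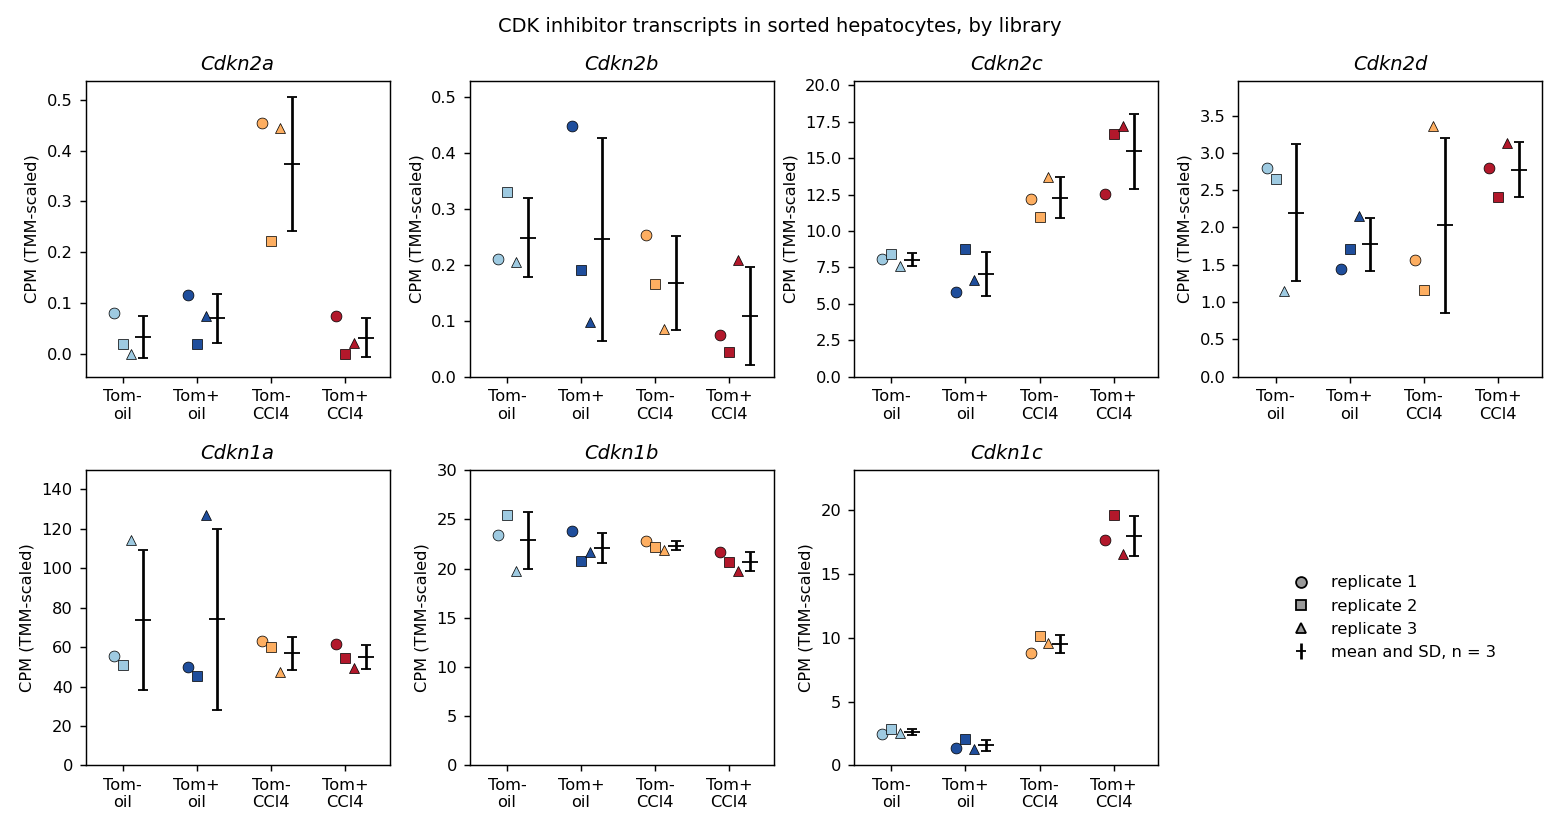
Levels of each CDK inhibitor gene in TMM-scaled CPM in the 12 libraries, by group (marks are replicates 1 to 3, bars the mean and SD, n = 3; each panel has its own linear axis). Cdkn1c and Cdkn2c are higher in every CCl4 library than in any oil library, Cdkn1b stays between 19.8 and 25.5 CPM, and Cdkn1a is highest in replicate 3 of both oil groups.

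Cdkn1c, an imprinted gene that codes for p57 and is expressed mainly from the maternal allele, was called in 4 of the 5 comparisons, more than any other of the 7. It measured 2.43, 2.85 and 2.55 CPM in Tom- oil, 1.37, 2.04 and 1.27 in Tom+ oil, 8.77, 10.2 and 9.59 in Tom- CCl4, and 17.7, 19.6 and 16.5 in Tom+ CCl4, which is between 52 and 147 reads per oil library and between 347 and 1434 per CCl4 library. No 2 of the 4 groups overlapped. Between CCl4 and oil it rose by 1.86 ± 0.17 (log2, SE, 95% interval 1.504 to 2.22, edgeR adjusted p = 2.3e-05) within Tom- and by 3.52 ± 0.18 (3.14 to 3.89, edgeR adjusted p = 9.5e-08) within Tom+, 3.63-fold and 11.4-fold. In CCl4 it was higher in Tom+ by 0.92 ± 0.16 (0.58 to 1.25, edgeR adjusted p = 0.00724), 1.89-fold, in 3 of 3 same-numbered pairs. In oil its values went the other way, with Tom+ below Tom- in 3 of 3 pairs and a log2 difference of -0.74 ± 0.17 that did not pass (edgeR adjusted p = 0.441). With same-numbered libraries paired it was -0.75 (adjusted p = 0.0454), still just short of the log2 threshold of 0.75. DESeq2 gave an adjusted p of 0.0389 for it, with a log2 difference inside the threshold of 0.75, and without the 2 oil libraries whose reporter went against their labels the difference was -1.04 (edgeR adjusted p = 0.161). The reporter was higher in Tom+ in oil pair 3 (1225 against 143 CPM). It was not in oil pairs 1 (1546 against 1794 CPM) and 2 (135 against 157 CPM), so these pairs do not contrast reporter levels as labelled. The interaction was 1.65 ± 0.23 (1.15 to 2.16, edgeR adjusted p = 0.00738).

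The calls of Cdkn1c held in all alternatives that were run, with log2 differences between 0.85 and 0.97 for Tom+ against Tom- in CCl4 (adjusted p between 2.2e-06 and 0.0467). For CCl4 against oil they lay between 1.81 and 2.80 within Tom- (adjusted p between 1.0e-23 and 3.5e-04) and between 2.80 and 3.76 within Tom+ (adjusted p between 4.1e-82 and 4.4e-05). The 2.80 in both ranges (edgeR adjusted p = 4.4e-05) is the same value, from summed same-numbered libraries, which pool the fractions. With 1 library left out the differences lay between 1.81 and 1.93 within Tom- and between 3.40 and 3.75 within Tom+. Without the 2 oil libraries whose reporter went against their labels these were 1.82 and 3.76. Gm44732, a feature on the other strand, lies with 625 of its 635 exon bases inside the exons of Cdkn1c and held between 16.7% and 28.2% of the summed counts of both. The libraries were strand-specific per the labels, but the strand setting of the authors' counting is not given in the sources used here, so that it is not known whether reads of the 2 features were kept apart. Summing them, an alternative chosen after seeing the data, gave 0.92 for Tom+ against Tom- in CCl4 (edgeR adjusted p = 0.00777) and 3.49 for CCl4 against oil within Tom+ (adjusted p = 1.2e-07).

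**Figure D4:**
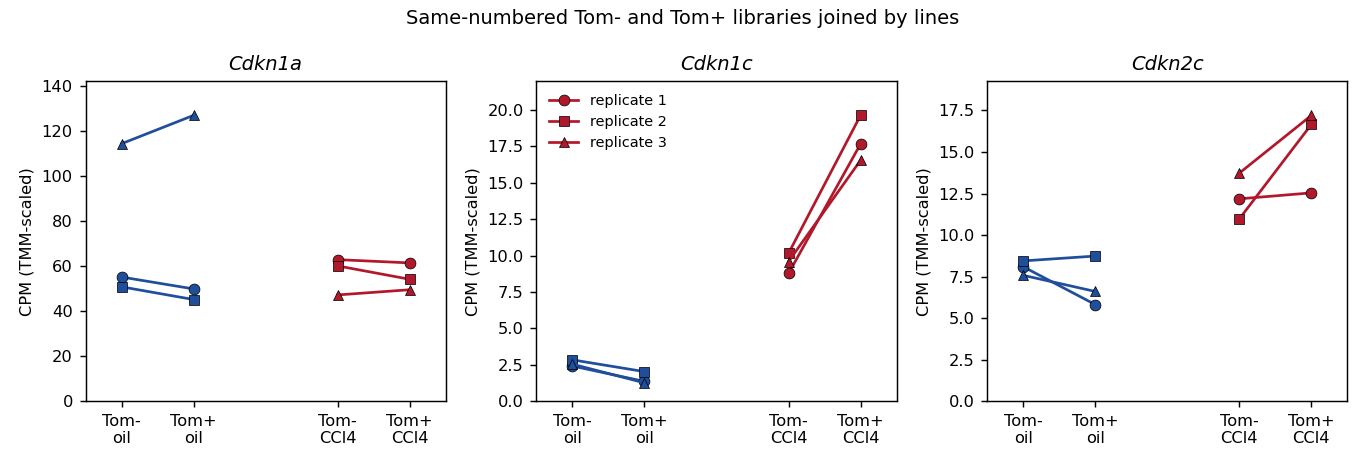
Cdkn1a, Cdkn1c and Cdkn2c in CPM, with lines joining same-numbered Tom- and Tom+ libraries of oil (blue) and CCl4 (red); axes are linear. Cdkn1a differs between numbers far more than between fractions, and Cdkn1c falls from Tom- to Tom+ in the 3 oil pairs and climbs in the 3 CCl4 pairs. In oil pairs 1 and 2 the reporter was not higher in Tom+.

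Within Tom+, marker genes of liver zones moved with Cdkn1c and Cdkn2c. Of 10 genes of zone 3, the region around the central vein, 5 were higher in CCl4 than in oil within Tom+ (2.90% of all genes), among them Lgr5 (log2 difference 3.21) and Axin2 (2.99). This count was 1, Axin2, without Tom+ CCl4 replicate 3 and without Tom+ oil replicate 1 or 3, 2 without Tom+ CCl4 replicate 1 or 2, and 3 without Tom- CCl4 replicate 2 or Tom- oil replicate 3. Within Tom-, where Cdkn1c also rose, 0 of the 10 were higher and 1 was lower (Oat, -2.60, called in 14 of 24 alternatives), beside 6.33% and 1.59% of all genes. With the replicate number as a term shared by oil and CCl4 libraries, which come from different mice, 3 were lower there (Cyp2e1, Lhpp and Oat). Axin2 was called higher within Tom- without replicate 2 of either oil group. Of the 10, 0 passed between the fractions in CCl4 (edgeR, 4 at an unadjusted p under 0.05, 1 by DESeq2 and 1 by limma-voom). With same-numbered libraries paired, 8 of the 10 were higher in Tom+ there, among them Glul, Cyp2e1 and Axin2, and 4 were lower in Tom+ in oil. Of all 17121 genes this pairing called 126 higher and 556 lower in CCl4, and 11 and 29 in oil. In oil pairs 1 and 2 the reporter was not higher in Tom+. All 10 zone 3 genes had a positive fitted difference between the fractions in CCl4 and a negative one in oil, the signs of Cdkn1c. Of 10 genes of zone 1, around the portal vein, 5 were lower in Tom+ than in Tom- in CCl4 (1.74% of all genes), among them Cyp2f2 (-1.42) and Sds (-1.39), or 3 without replicate 2 of either CCl4 group. Sds was called in 23 of 23 alternatives and Cyp2f2 in 15 of 23, its call being lost without any one of the CCl4 libraries. In the same comparison endothelial markers summed lower in Tom+, between 130 and 176 CPM against between 249 and 269. Stellate cell markers overlapped there, between 50.4 and 103 CPM in Tom+ and between 69.5 and 92.8 in Tom-. In oil they summed to between 8.84 and 24.4 CPM, below every CCl4 library, as Cdkn1c and Cdkn2c were. Macrophage markers overlapped as well, between 48.0 and 146 CPM in Tom+ CCl4 and between 75.6 and 98.5 in Tom- CCl4. The part of zonation or of other cells in the Cdkn1c and Cdkn2c differences was not tested.

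Counted over the comparisons, 1 of the 7 genes was called higher in the Tom+ fraction of CCl4 livers and 0 lower, where 0.222% of all 17121 genes tested were called higher and 1.74% lower. In oil 0 of the 7 were called (edgeR; 1 at an unadjusted p under 0.05, and 0 called by DESeq2 or limma-voom), with 0% of all genes higher and 0% lower. For CCl4 against oil, 2 of the 7 were past both thresholds and higher within Tom-, against 6.33% of all genes, and 2 within Tom+ (Cdkn1c and Cdkn2c), against 2.90%. The 2 within Tom- were Cdkn1c and Cdkn2a, and Cdkn2a, which was tested only because it was high in Tom- CCl4, is not taken as support. None of the 7 was lower, where 1.59% and 2.34% of all genes were. For the interaction 1 of 7 was higher and 0 lower, against 0.216% and 0.958%. Groups did not overlap for 3 of the 7 genes between the fractions in CCl4 (28.7% of all genes), 1 of 7 in oil (11.7%), 3 of 7 for CCl4 against oil within Tom- (36.0%) and 3 of 7 within Tom+ (29.3%). The median log2 difference of the 7 lay between -0.094 and -0.035 over the 5 comparisons, beside medians of all genes between -0.006 and 0.007. These counts and medians include Cdkn2a and are descriptions. Without the 2 oil libraries whose reporter went against their labels, the members past both thresholds were the same in each comparison. The comparisons share groups, so their calls are not independent of each other.

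**Figure D5:**
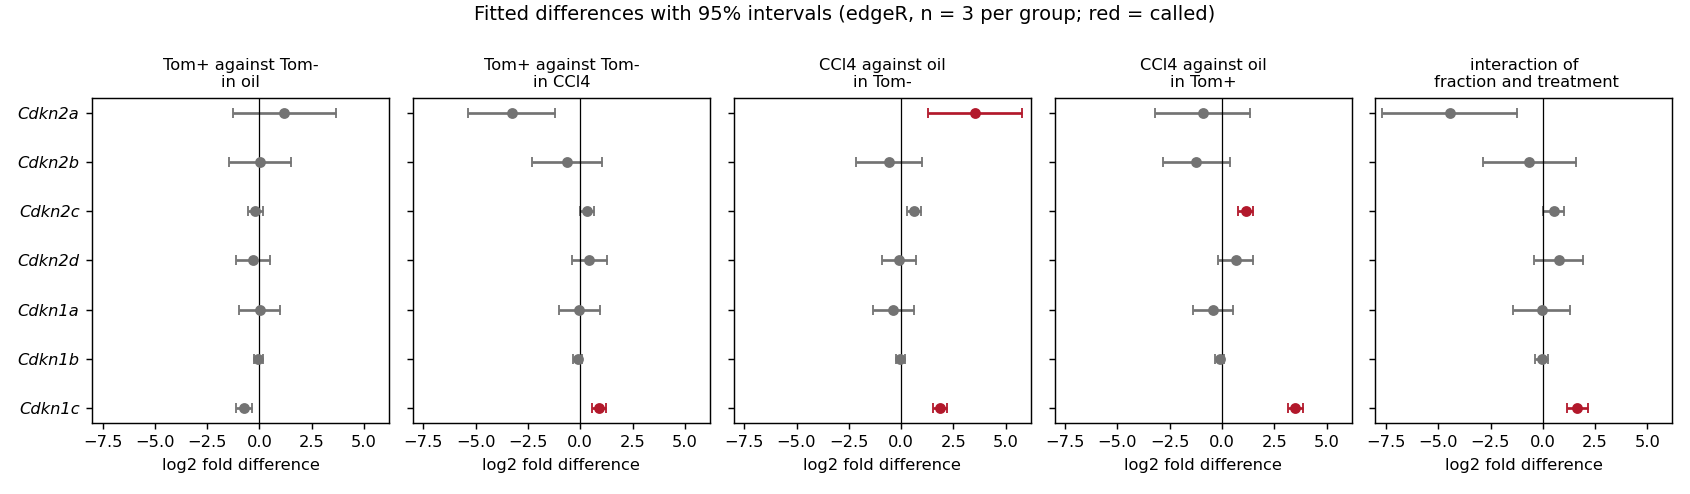
Fitted log2 differences of the 7 genes with 95% intervals in the 5 comparisons (edgeR quasi-likelihood test, n = 3 per group); red marks genes past an adjusted p of 0.05 and a log2 difference of 0.75. Cdkn1c is red in 4 of the 5 panels and Cdkn2c in 1, Cdkn2a is red in 1 but was tested only through its level in Tom- CCl4, and the intervals of Cdkn1b are the narrowest.

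Among the partners and targets of the inhibitors, cyclin D1 rose with CCl4 in both fractions. The list of CDKs, cyclins, RB and E2F genes holds 23 genes, all tested. Of all genes tested, 6.33% were called higher in CCl4 than in oil within Tom- and 2.90% within Tom+, shares that also stand beside the counts of the lists below. Within Tom- 2 were higher in CCl4 than in oil and 0 lower, Ccnd1 (cyclin D1, log2 difference 1.38 ± 0.22 SE, edgeR adjusted p = 0.00251) and Ccnd2 (cyclin D2, 1.51 ± 0.31, adjusted p = 0.00688). Within Tom+ 3 were higher and 0 lower, Ccnd1 (1.89 ± 0.22, edgeR adjusted p = 4.4e-04), Ccne1 (cyclin E1, 2.51 ± 0.63, adjusted p = 0.0234) and Cdk2 (0.84 ± 0.16, adjusted p = 0.0061). Without Tom+ CCl4 replicate 3 the call of Ccne1 was lost (adjusted p = 0.116) and Cdk2 fell short of the fold threshold (0.69), and Ccne1 was also lost without Tom+ oil replicate 1 or 3 (adjusted p = 0.101 and 0.0641). The level of Ccnd1 was between 55.5 and 67.4 CPM in all oil libraries, between 116 and 204 in Tom- CCl4 and between 195 and 316 in Tom+ CCl4. Cdk4, a partner of the INK4 proteins, lay between 79.0 and 105 CPM in all libraries. Cdk6, their other partner, lay between 27.8 and 34.4 CPM in Tom+ CCl4 and between 16.65 and 24.2 CPM in the other groups, without overlap, and was not among the genes called by edgeR. Between the fractions 0 of 23 were called in CCl4 by edgeR (7 at an unadjusted p under 0.05), 1 by DESeq2 and 1 by limma-voom. Ccnd2, at 2.17, 3.89 and 4.32 CPM in Tom+ CCl4 and 6.67, 8.18 and 7.22 in Tom- CCl4, was the gene called by the latter tools, and its edgeR difference was -1.10 ± 0.31 (adjusted p = 0.0538). With same-numbered libraries paired, 2 of 23 were called there (Ccnb1 higher and Ccnd2 lower in Tom+) and 4 of 23 for the interaction, against 0 without pairing (edgeR, 5 at an unadjusted p under 0.05, 1 by DESeq2 and 0 by limma-voom). Of all 17121 genes pairing called 126 higher and 556 lower in CCl4, and 220 and 718 for the interaction. In oil 0 of 23 were called (edgeR, 1 at an unadjusted p under 0.05, 0 by DESeq2 and limma-voom).

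Genes of S phase and mitosis, the processes the inhibitors restrain, showed few calls. Of 10 such genes 1 was higher in CCl4 than in oil within Tom- (Mcm3, a subunit of the replicative helicase, 0.86 ± 0.26) and 1 within Tom+ (Cdt1, which loads that helicase, 1.34 ± 0.38). Both calls were lost without replicate 3 of their CCl4 group (edgeR adjusted p = 0.154 and 0.198) and when some of the other libraries were left out. Without the 2 oil libraries whose reporter went against their labels both were lost as well (adjusted p = 0.0834 and 0.0515). Mcm3 was called in 16 of 24 alternatives and Cdt1 in 15 of 24. Mki67 and Top2a, marks of cycling cells, were highest in replicate 3 of both CCl4 groups, where Mki67 stood at 27.4 CPM in Tom- and 37.0 in Tom+ against between 4.95 and 6.35 in the other CCl4 libraries. Of 8 tested genes that degrade or stabilise the inhibitors, 0 were called in any comparison (edgeR, at most 4 at an unadjusted p under 0.05, for the fractions in CCl4), nor by DESeq2 or limma-voom.

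Of 13 regulators of the INK4 locus, 2 were higher in CCl4 than in oil within Tom-, both of them Ets factors known to activate p16Ink4a. Ets1 rose by 1.23 ± 0.20 (log2, SE) and Ets2 by 0.84 ± 0.15. In CCl4 Ets1 was lower in Tom+ than in Tom- (-0.91 ± 0.20, edgeR adjusted p = 0.022), at 9.43, 15.1 and 15.7 CPM against 23.96, 27.3 and 24.3. The call was lost without Tom- CCl4 replicate 2 (adjusted p = 0.103) and without Tom+ CCl4 replicate 1 (0.058) or 2 (0.0619). Ets1 was highest in Tom- CCl4, where the endothelial marker sums were highest as well, and the part of other cells in its level was not tested. Of 14 tested genes of TGF-beta and MYC control, which act on Cdkn2b and Cdkn1a, 3 were higher in CCl4 than in oil within Tom- (Smad7 by 1.42, Tgfb1 by 1.35 and Myc by 1.22) and 1 within Tom+ (Smad7 by 1.01). Within Tom+ it was 2 with the replicate number as a term shared by oil and CCl4 libraries. Of 14 genes on the p53 list, which holds Trp53 itself and targets other than Cdkn1a, 1 was higher in CCl4 within Tom- (Phlda3, 1.21 ± 0.38), beside 6.33% of all genes. Within Tom+ 2 were higher (Phlda3, 1.76 ± 0.38, and Eda2r, 1.51 ± 0.31), beside 2.90% of all genes. The Tom- call of Phlda3 was made in 13 of 24 alternatives and the Tom- call of Myc in 19 of 24. Without the 2 oil libraries whose reporter went against their labels, Phlda3 and Myc did not pass within Tom- (edgeR adjusted p = 0.0782 and 0.0735) and Eda2r did not pass within Tom+ (0.0524).

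Around Cdkn1c on chromosome 7, 12 other genes of its imprinted region were listed and 8 of them tested. Kcnq1ot1, a long RNA transcribed from the paternal allele and known to silence Cdkn1c on that allele, was lower in Tom+ than in Tom- in CCl4 (log2 difference -2.09 ± 0.52 SE, edgeR adjusted p = 0.0327), at 0.295, 0.328 and 0.292 CPM against 0.834, 2.41 and 0.697. Tom- CCl4 replicate 2 was the highest of these, and the groups did not overlap. With same-numbered libraries paired, Kcnq1 and Osbpl5 were called lower as well. Without Tom- CCl4 replicate 2 the difference of Kcnq1ot1 was -1.32 and did not pass (adjusted p = 0.188), and it was also lost without any one of the Tom+ CCl4 libraries and in limma-voom (adjusted p = 0.0703). Phlda2 (3.85 ± 0.97) and Osbpl5 (1.28 ± 0.35) were higher in CCl4 than in oil within Tom-, in 15 of 22 and 19 of 24 alternatives, and neither passed without the 2 oil libraries whose reporter went against their labels (adjusted p = 0.0618 and 0.109). Within Tom+ 0 of the 8 passed (edgeR, 1 at an unadjusted p under 0.05, 0 by DESeq2 and limma-voom), where Cdkn1c rose most. Slc22a18, the next gene at 12686 bases, did not pass between CCl4 and oil in either fraction (0.17 and -0.20).

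The genes whose levels over the 12 libraries were most like those of a member are given as a description, by Pearson's r of log2 CPM among 13060 or 13061 genes of at least 1 CPM on average. The points share 4 groups, so that any gene separating the same groups gives a high r. For Cdkn1c they were Hacd1 (r = 0.991), the overlapping Gm44732 (0.989) and Anxa2 (0.98), a calcium-dependent membrane-binding protein that measured 3.26 CPM on average in Tom- oil, 2.21 in Tom+ oil, 9.34 in Tom- CCl4 and 18.8 in Tom+ CCl4. For Cdkn2c they were Rtn2 (0.97), Sgms1 (0.964), a sphingomyelin synthase, and BC005537 (0.963), and Cdkn1c and Cdkn2c themselves had an r of 0.95. For Cdkn1a they were its overlapping antisense feature AC167363.2 (0.942), Chd6 (0.912) and the transcription factor Foxo1 (0.905). For Cdkn2a they were Dus3l (0.939), Stard8 (0.907) and Exoc3l2 (0.892), each highest on average in Tom- CCl4. For Cdkn1b they were Neil1 (0.882), Gm28038 and Wrap73 (both 0.827), for Cdkn2b Gpr157 (0.835), Tubgcp2 (0.823) and Tgif1 (0.812), and for Cdkn2d A930001C03Rik (0.897), Tinf2 (0.875) and Hmgxb3 (0.872). The reporter had an r between -0.258 and 0.326 with the 7 genes, and -0.258 was that with Cdkn2a.

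Of the nearest tested neighbours of the other members, 2 passed the test in 1 comparison each. Rab44, 13418 bases beyond Cdkn1a and with at most 42 reads in a library, was lower in CCl4 than in oil within Tom+ (log2 difference -4.18, edgeR adjusted p = 0.0155), and Slc44a2, 29291 bases beyond Cdkn2d, was higher within Tom- (1.22, adjusted p = 0.00493). Mtap, the nearest tested gene beyond Cdkn2a at 93390 bases, differed by 0.29 between the fractions in CCl4 and by 0.02 between CCl4 and oil within Tom-, and neither passed (edgeR adjusted p = 0.15 and 0.94). Faf1, 9399 bases from Cdkn2c, differed by -0.03 between CCl4 and oil within Tom+ (adjusted p = 0.881).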

How the data were processed

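Hepatocyte RNA-seq libraries were grouped by treatment, sorted fraction and replicate number from the labels, which were kept as deposited. Per the labels and the study's methods, HISAT2 (v2.1.0) mapped the fastp-processed reads (v0.23.2) on mm10. The authors deposited expected counts per feature, not normalized. The libraries were strand-specific per the labels, and the counting program, its strand setting and the annotation release are not given in the sources used here. The design had assumed whole counts, and the deposited expected counts, of which between 30.4% and 32.9% of non-zero values per library were not whole, were rounded before testing. Symbols matched 54723 of the 54839 identifiers.

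Low counts were filtered with filterByExpr, which kept 17121 genes, and library sizes were scaled by TMM. The robust quasi-likelihood test of edgeR (v4.0.16, under R v4.3.3) was fitted to all 12 libraries, with the 4 groups as the design. Calls required a Benjamini-Hochberg adjusted p under 0.05 over all genes and a log2 difference beyond 0.75. TPM were computed from the rounded counts and the deposited lengths. Ratios of reads have exact Clopper-Pearson intervals from binomial counts, which cover counting error only. Figures were drawn in Python (v3.11.15) with matplotlib (v3.10.9). The test was tested on simulated data.

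The members and gene lists were chosen with earlier results of these data known. Named are the 7 members, the genes of each list past both thresholds (at most 4 per list and comparison), the 3 genes most like each member averaging 1 CPM or more, and chromosomal neighbours; other genes were named after their values were seen. Whether a number marks a mouse is not in the labels. The deviations of same-numbered Tom+ and Tom- libraries of a treatment from their group means correlated at between 0.353 and 0.613 over 13061 genes in all 6 pairs. Those of other pairs within a treatment correlated at between -0.453 and 0.0187, so the numbers pair the fractions within each treatment. The labels do not name separate mice for the replicates, and p-values then measure the spread between these libraries. Alternatives were a replicate block, RLE and upper-quartile normalization, other filters, unrounded counts, DESeq2 (v1.42.0), limma-voom (limma v3.58.1), the adjusted p alone, subsets of the libraries, sums of same-numbered libraries, which pool the fractions, and, chosen after seeing the data, sums with overlapping antisense features. Between the fractions and for the interaction, the block was the replicate within a treatment. For CCl4 against oil it was the number itself, shared by oil and CCl4 libraries, a match across treatments that was not checked.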

Additional observations from a re-analysis of the deposited data

Results flagged for a closer look

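Cdkn1c was the 1 result of the 7 genes flagged, because its Tom+ against Tom- effect differed between CCl4 and oil by a test of that difference (edgeR interaction 1.65 on the log2 scale, adjusted p = 0.00738). Tom+ was above Tom- in 3 of 3 CCl4 pairs and below it in 3 of 3 oil pairs. In oil pairs 1 and 2 the reporter was not higher in Tom+ (1546 against 1794 and 135 against 157 CPM). The interaction stayed past both thresholds in the 22 alternatives that gave a value, between 1.54 and 1.94, and it was 1.94 without the 2 oil libraries whose reporter went against their labels. Zone 3 genes had interactions of the same sign, 2.14 for Cyp2e1 and 2.79 for Lgr5, neither of which passed (edgeR adjusted p = 0.0893 and 0.218). With same-numbered libraries paired, 9 of the 10 zone 3 genes passed for the interaction, where 220 of all 17121 genes were called higher and 718 lower. The part of zonation was not tested. No group had enough libraries for a test of single libraries standing apart.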

How the results depend on the processing

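The calls of Cdkn1c and the call of Cdkn2c within Tom+ kept their direction and their side of the thresholds in every alternative that was run. The number of CDK inhibitor genes called for Tom+ against Tom- in CCl4 was 2 with the replicate block and 2 with limma-voom, Cdkn2a being added in both, a gene tested only through its level in Tom- CCl4 and so no support. For CCl4 against oil within Tom- it was 1 with no low-count filter, 1 with at least 10 counts in every library and 1 with only the 6 libraries compared, where Cdkn2a was lost or not tested, and between 1 and 2 when 1 library was left out. Of the 23 CDK, cyclin, RB and E2F genes, for Tom+ against Tom- in CCl4 2 were called with the replicate block (Ccnb1 higher, Ccnd2 lower) and 1 each with upper-quartile normalization, no filter, at least 10 counts, DESeq2, limma-voom, the 6 libraries compared and the adjusted p alone, and between 0 and 1 when 1 library was left out. For CCl4 against oil it was 4 within Tom- by the adjusted p alone, and between 1 and 4 within Tom+ when 1 library was left out, the lowest without Tom+ CCl4 replicate 3. For the interaction it was 4 with the replicate block and 1 with DESeq2. The replicate block changed no other call of the 7 genes. Of all 17121 genes it called 126 higher and 556 lower for Tom+ against Tom- in CCl4, against 38 and 298 without it. In oil it called 11 and 29 against 0 and 0, and for the interaction 220 and 718 against 37 and 164. For CCl4 against oil it called 1366 and 328 within Tom- against 1083 and 273. Within Tom+ it called 645 and 474 against 497 and 400. In the other gene lists named, the block changed these counts of calls. For Tom+ against Tom- in CCl4 they went from 0 to 8 of the zone 3 genes, 5 to 7 of zone 1, 4 to 5 of the endothelial markers, 0 to 1 of the macrophage markers and 1 to 3 of the imprinted region, and in oil from 0 to 4 of zone 3. For CCl4 against oil the block was the replicate number shared by oil and CCl4 libraries, which come from different mice, so these counts rest on no known pairing. Within Tom- they went from 1 to 3 of zone 3 and 0 to 7 of the macrophage markers. Within Tom+ they went from 5 to 6 of zone 3, 6 to 7 of the stellate cell markers, 0 to 2 of the macrophage markers, 0 to 1 of the INK4 locus list and 1 to 2 of the TGF-beta and MYC list. For the interaction they went from 0 to 9 of zone 3, 4 to 8 of zone 1, 1 to 8 of the endothelial markers and 0 to 3 of the macrophage markers, and from 0 to 1 each of the stellate cell, INK4 locus, TGF-beta and MYC, and imprinted lists. The causes were not tested. Uncalled differences changed sign in 36 of 825 values of single genes, 26 of them of Cdkn1a and Cdkn2b. DESeq2 gave no adjusted p for Cdkn2a between the fractions in CCl4.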
